A study of Mus musculus with 16 samples.

Results

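Stored triglyceride is released from lipid droplets by lipases, and the perilipins are the proteins that coat those droplets. Transcripts of 10 genes of this system were followed, of 33641 gene symbols listed in each table. They are the lipases Pnpla2, Lipe and Mgll, the lipase activator Abhd5, the lipase inhibitor G0s2, and the perilipins Plin1, Plin2, Plin3, Plin4 and Plin5. The members were taken by symbol, and all 10 were found in all 16 libraries. RNA came from left ventricle and from subcutaneous white fat (scWAT) of 28-week C57BL/6J mice. The mice were labelled wild-type or Adipo-HuR KO, a deletion of HuR in adipocytes, and HuR is the RNA-binding protein encoded by Elavl1. The 5 wild-type scWAT libraries are named by mouse as A5, A7, A8, A12 and A14, and the 3 labelled knockout as A24, A26 and A30. The 4 wild-type hearts came from A5, A7, A8 and A14, the 4 labelled knockout from A25, A29, A30 and A31. Values of a group are given in this order of mice. Within a group no mouse gave more than 1 library, and 5 of the 11 mice gave both tissues. The promoter that drives the recombinase, the sex of the mice and any allele that the wild-type mice carry were not among the labels.

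In lipolysis, adipose triglyceride lipase (Pnpla2) removes the first fatty acid from triglyceride, hormone-sensitive lipase (Lipe) acts mainly on the diglyceride that is left, and monoglyceride lipase (Mgll) frees the last fatty acid and glycerol. Abhd5, also called CGI-58, activates Pnpla2, and G0s2 binds Pnpla2 and inhibits it. In fat cells Plin1 holds Abhd5 at the droplet until protein kinase A phosphorylates the perilipin and releases it. Plin2 coats droplets in most cell types, Plin3 is a widely expressed member that also occurs in the cytosol, Plin4 is found on small droplets of adipocytes and striated muscle, and Plin5 belongs to tissues that burn fat, such as heart, where it sits between droplets and mitochondria.

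Values are TPM, a transcript abundance adjusted for length and scaled to a fixed total per library, so levels of different genes can be compared. Depth is unknown. Elavl1 stood at 19.0 to 34.5 TPM in wild-type scWAT and at 36.2 to 42.9 TPM in scWAT labelled knockout, against the direction of the label. In heart it was at 6.66 to 12.6 TPM in wild-type mice and 8.45 to 15.9 TPM in those labelled knockout. Directions below are between labels. In the scWAT library of A26 the summed B cell markers reached 505 TPM, against 2.03 to 21.2 TPM in the wild-type libraries, and the T cell markers 396 TPM, against 5.25 to 13.8 TPM. Its fibroblast markers summed to 815 TPM, against 2019 to 3573 TPM in wild-type scWAT and 3494 and 2468 TPM in A24 and A30. Skeletal muscle markers summed in A24, A26 and A30 to 3874, 287 and 7889 TPM, and in wild-type scWAT to 835 TPM in A7 and at most 52.3 TPM elsewhere. In heart, the hypertrophy markers (Nppa, Nppb, Acta1 and Myh7) summed to 209 to 630 TPM in wild-type mice, to 7367 to 9563 TPM in A25, A30 and A31, and to 322 TPM in A29, so results of heart are given with and without A29. Mitochondrially encoded transcripts took 51.9% to 60.6% of the TPM of wild-type hearts, 43.4% to 55.7% of hearts labelled knockout and 6.14% to 14.4% of scWAT.

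Wild-type scWAT held the lipolytic genes among its abundant transcripts. Pnpla2 stood at 2377 ± 852 TPM (SD, n = 5), Plin1 at 2036 ± 285 TPM, Lipe at 1847 ± 156 TPM and Plin4 at 1841 ± 192 TPM. The ranges of these 4 genes overlapped from each to the next. Below them came Mgll at 796 ± 56.5 TPM, Plin2 at 718 ± 356 TPM and G0s2 at 513 ± 142 TPM, again with overlapping ranges. Abhd5 followed apart from its neighbours, at 169 ± 38.9 TPM. Plin3 at 59.7 ± 13.3 TPM and Plin5 at 22.5 ± 18.0 TPM were the lowest of the 10 and overlapped. The activator was thus listed below both its lipase and its inhibitor in fat.

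The wild-type left ventricle had another order. Pnpla2 again came first at 147 ± 62.5 TPM (n = 4), and was followed by Plin3 at 59.6 ± 12.6 TPM, Plin4 at 51.0 ± 16.3 TPM, Mgll at 48.5 ± 10.8 TPM and Plin5 at 46.2 ± 8.50 TPM, each overlapping the next. Plin2 at 33.8 ± 7.81 TPM, G0s2 at 28.4 ± 10.5 TPM, Abhd5 at 24.5 ± 2.65 TPM and Lipe at 18.7 ± 5.39 TPM formed a lower run of overlapping genes. Plin1 was last and far apart, at 0.0226 TPM in A5, 0.134 TPM in A7, 0.698 TPM in A8 and 0.0527 TPM in A14. Lipe was among the 4 highest members in fat and next to last in the heart.

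**Figure D1:**
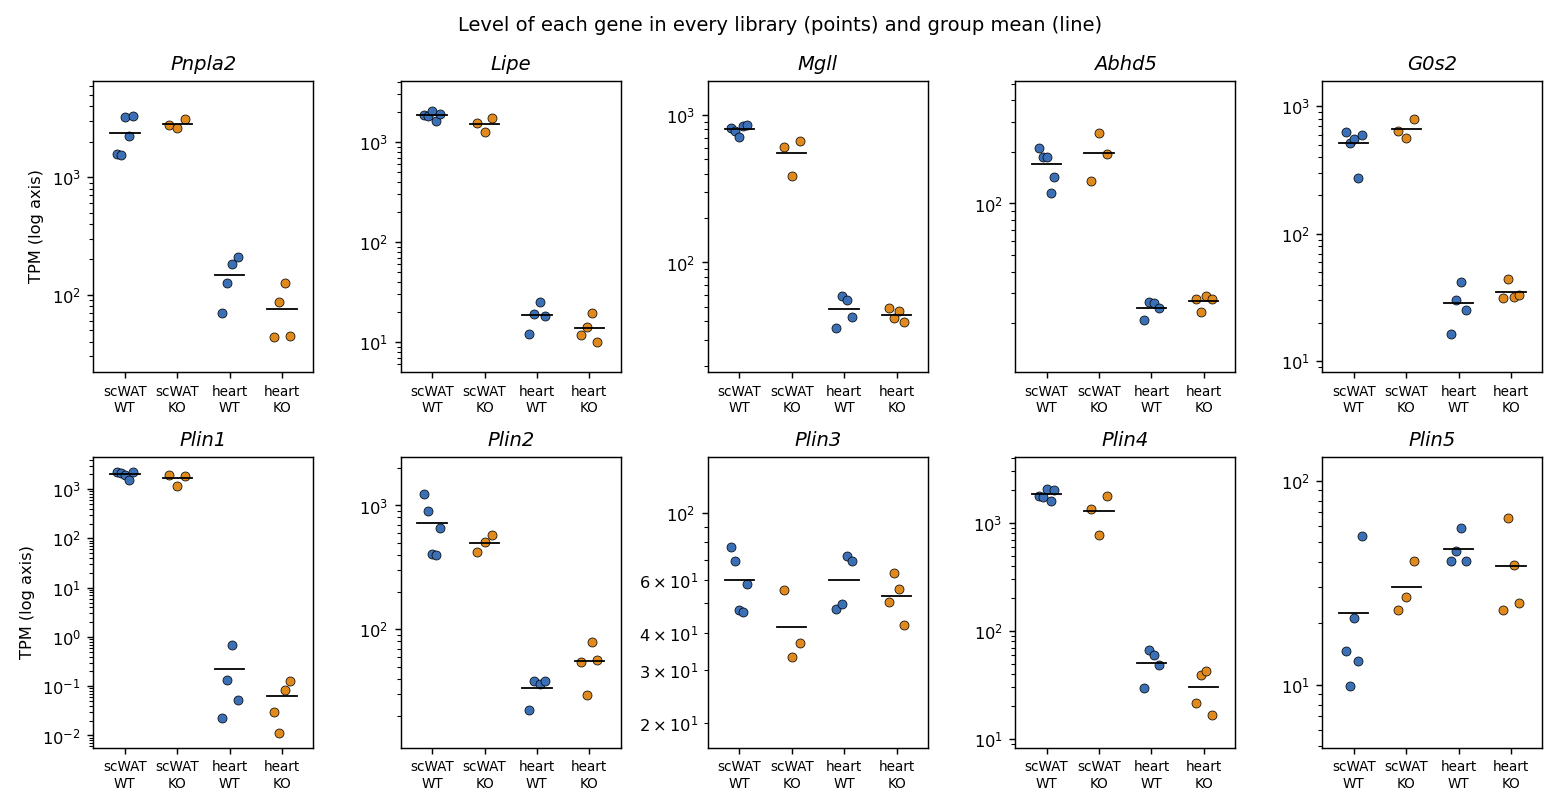
TPM of each of the 10 genes (log axis) in every library of the 4 groups, with 1 point per mouse and a line at the group mean; WT is wild-type and KO is labelled knockout. Plin3 and Plin5 overlap between the tissues, while the other 8 genes are higher in every scWAT library than in any heart library.

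Heart and scWAT of wild-type mice were compared with limma on log2(TPM + 1), over the 13727 genes whose mean reached 1 TPM in either tissue. Of the 10 members 8 were lower in heart past the adjusted threshold of 0.05, as were 77.7% of all genes tested, and 1 was higher, as were 8.55%. The same 8 did not overlap between the tissues, where 72.1% of all genes tested were lower without overlap. The median log2 fold change of all genes was -1.22, in libraries where mitochondrial transcripts take most of the heart total, so fold changes relative to that median are given as well. In tissue of mixed cells, fewer cells of a type and less RNA per cell cannot be told apart.

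Among the lipases, Lipe differed most. In the 5 scWAT libraries it stood at 1864, 1811, 2036, 1610.1 and 1913 TPM and in the 4 hearts at 12.1, 19.2, 25.2 and 18.1 TPM. The log2 fold change was -6.59 ± 0.19 (SE, limma adjusted p = 2.35e-11), or -5.37 relative to the median. Within the 4 mice that gave both tissues, its scWAT level was 80.6 to 154 times that of the heart. Pnpla2, at 1579.5, 1545, 3240.5, 2241 and 3279 TPM in scWAT and at 70.0, 125, 182 and 211 TPM in heart, differed less, by -4.05 ± 0.33 (SE) on the log2 scale (limma adjusted p = 2.36e-07), or -2.83 relative to the median. Mgll differed by about as much as Pnpla2, with -4.03 (SE 0.16). The ratio of Pnpla2 to Lipe was 0.847 to 1.71 in wild-type scWAT and 5.79 to 11.6 in wild-type heart, so the first lipase of the pathway exceeded the second in every wild-type heart.

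The regulators of Pnpla2 were lower in heart as well. G0s2, the inhibitor, stood at 272 to 633 TPM in scWAT and at 16.5 to 41.6 TPM in heart (-4.14 ± 0.29 SE on the log2 scale, limma adjusted p = 5.59e-08). Abhd5, the activator, ranged from 116 to 212 TPM in fat and from 20.8 to 26.6 TPM in heart (-2.71 ± 0.19 SE on the log2 scale, limma adjusted p = 6.08e-08). Relative to the median the fold change was -1.49 for Abhd5 and -2.92 for G0s2. Transcripts of Pnpla2 outnumbered those of Abhd5 by 7.47 to 23.0 times in wild-type scWAT and by 3.37 to 8.58 times in wild-type heart. The ratio of Pnpla2 to G0s2, 2.49 to 8.25 in scWAT, lay at 4.11 to 8.33 in heart and overlapped.

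The perilipins separated into a fat set and a pair that the heart held at like or higher levels. Plin1 had the largest tissue difference of the 10, with 1569.5 to 2277 TPM in scWAT and a difference of -10.72 ± 0.18 (SE) on the log2 scale (limma adjusted p = 4.33e-13), a size that depends on the pseudocount because the heart values are near 0. Cidec, a droplet protein of white adipocytes, and Adipoq, the gene of a fat cell hormone, stood no higher than 1.92 and 1.72 TPM in wild-type heart. Of the 11 mature adipocyte markers, between 5 and 6 were under 1 TPM in the wild-type hearts A5, A7 and A14, and 1 in A8, the heart with the highest Plin1. Plin4 stood at 1795, 1736, 2054, 1601 and 2019 TPM in scWAT and at 29.5, 66.8, 59.8 and 48.0 TPM in heart (-5.20 ± 0.21 SE on the log2 scale, limma adjusted p = 5.42e-10). Unlike Plin1 it was well above 0 in every heart, and the Plin4 to Plin1 ratio was 0.788 to 1.04 in scWAT and 85.7 to 1304 in heart. Plin2 was lower in heart by -4.26 (SE 0.32, limma adjusted p = 1.24e-07).

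Plin5 was the one member higher in heart. It stood at 14.6, 9.83, 21.2, 13.0 and 53.9 TPM in scWAT and at 40.4, 45.2, 58.5 and 40.7 TPM in heart, and the groups overlapped through the scWAT of A14. Its log2 fold change was 1.25 (SE 0.38, limma adjusted p = 0.00798), or 2.47 relative to the median. The thermogenic adipocyte markers are listed for brown-like fat cells, which also express Plin5. They summed to 581 TPM in the scWAT of A14 and to 143 to 322 TPM in the other wild-type scWAT. The same list summed to 1983 to 2573 TPM in wild-type hearts, where Ucp1 was at most at 0.0182 TPM. Its sum is thus not particular to such fat cells, and their part in the Plin5 value was not tested. Plin3 did not pass, with a log2 fold change of 0.00 (SE 0.20, 95% interval -0.43 to 0.43, limma adjusted p = 0.991), at 46.8 to 76.9 TPM in scWAT and 47.8 to 71.9 TPM in heart. When mitochondrially encoded genes were removed and TPM rescaled, Plin3 was higher in heart by 1.01 (SE 0.17, limma adjusted p = 0.00027), and Plin5 by 2.26 (SE 0.38).

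**Figure D2:**
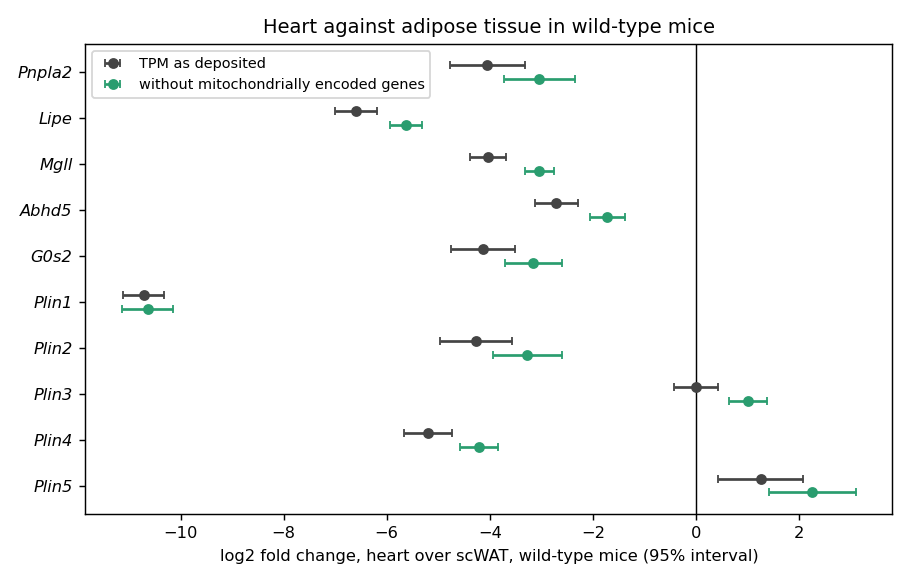
Log2 fold change of heart over scWAT in wild-type mice (4 and 5 libraries) with its 95% interval, for TPM as deposited and for TPM rescaled without mitochondrially encoded genes; the vertical line marks no difference. Plin1 lies at -10.72, Lipe and Plin4 follow, and Plin3 and Plin5 are the genes whose fold change is not below 0.

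As shares of all perilipin transcripts, Plin1 made up 43.5% ± 0.894 (SD, n = 5) in wild-type scWAT and Plin4 39.8% ± 5.36, with Plin2 at 14.9% ± 5.70, Plin3 at 1.27% ± 0.159 and Plin5 at 0.476% ± 0.353. In wild-type heart Plin3 took 31.5% ± 4.60 (n = 4), Plin4 26.3% ± 5.18, Plin5 24.5% ± 3.59, Plin2 17.6% ± 1.98 and Plin1 0.104% ± 0.137. Plin1 and Plin4 thus made up most perilipin transcripts of fat. In heart the ranges of Plin3, Plin4 and Plin5 overlapped, and Plin2, at 15.8% to 19.6%, lay below all 3.

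**Figure D3:**
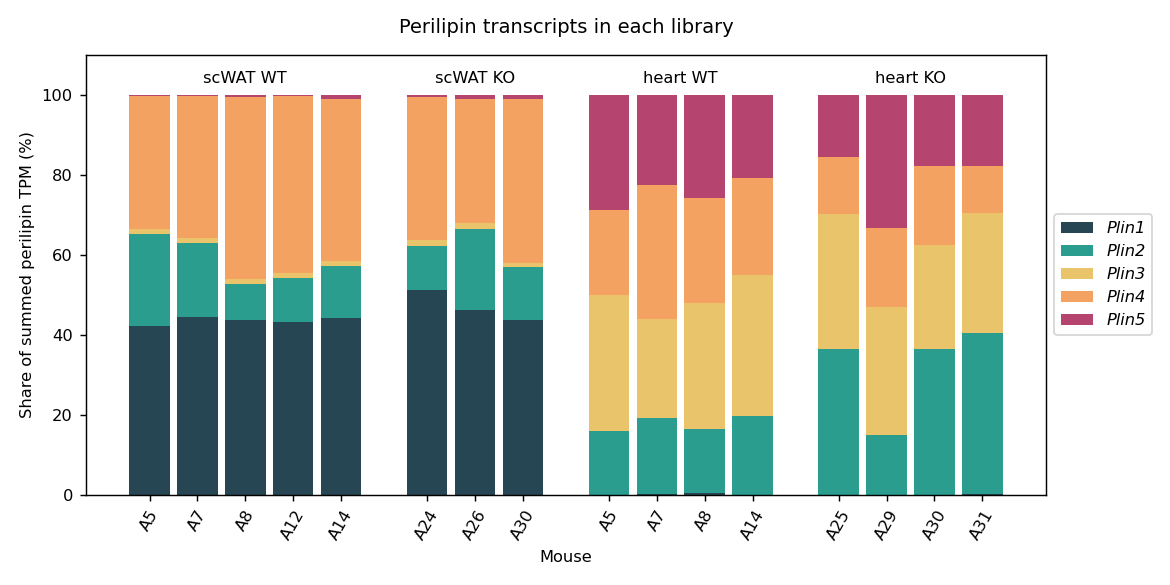
Share of the summed perilipin TPM (percent) taken by each of the 5 perilipin genes in every library, ordered by tissue and label. Plin1 fills 42.2% to 51.1% of each scWAT bar and at most 0.307% of any heart bar, and the Plin2 part is widest in the hearts A25, A30 and A31.

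Promoter windows of the perilipins at the ends of the tissue scale are printed to set their start regions side by side. Each window runs from 250 bases before to 50 after the start site, 5′ to 3′ on the gene's strand, from RefSeq on GRCm38.p6, and all 10 members matched an entry. Plin1 (chr7:79732727-79733026, minus strand) and Plin4 (chr17:56109733-56110032, minus strand) are the fat-dominant pair, and Plin3 (chr17:56290462-56290761, minus strand) and Plin5 (chr17:56117499-56117798, minus strand, the upstream of 2 windows) the pair present alike or more in heart. Capitals mark exact matches on either strand of AGGTCA (a nuclear receptor half-site), GGGCGG (a GC box), CCAAT and TATAAA.
Plin1: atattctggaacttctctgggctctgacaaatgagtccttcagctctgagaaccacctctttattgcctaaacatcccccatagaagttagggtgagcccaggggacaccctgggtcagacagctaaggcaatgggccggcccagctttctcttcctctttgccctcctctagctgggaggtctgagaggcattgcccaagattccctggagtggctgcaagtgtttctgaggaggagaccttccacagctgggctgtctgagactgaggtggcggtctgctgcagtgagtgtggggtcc
Plin4: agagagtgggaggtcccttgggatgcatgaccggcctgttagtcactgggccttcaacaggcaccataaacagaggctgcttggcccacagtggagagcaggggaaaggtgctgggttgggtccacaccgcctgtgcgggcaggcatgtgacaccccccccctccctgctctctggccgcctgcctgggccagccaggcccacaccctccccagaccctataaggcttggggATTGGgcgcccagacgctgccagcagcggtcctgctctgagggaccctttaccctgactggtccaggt
Plin3: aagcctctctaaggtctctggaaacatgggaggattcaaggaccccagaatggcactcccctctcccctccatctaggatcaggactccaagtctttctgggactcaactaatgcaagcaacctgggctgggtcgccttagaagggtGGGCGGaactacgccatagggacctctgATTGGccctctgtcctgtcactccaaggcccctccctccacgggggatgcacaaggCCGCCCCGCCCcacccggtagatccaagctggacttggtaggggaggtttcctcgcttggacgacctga
Plin5: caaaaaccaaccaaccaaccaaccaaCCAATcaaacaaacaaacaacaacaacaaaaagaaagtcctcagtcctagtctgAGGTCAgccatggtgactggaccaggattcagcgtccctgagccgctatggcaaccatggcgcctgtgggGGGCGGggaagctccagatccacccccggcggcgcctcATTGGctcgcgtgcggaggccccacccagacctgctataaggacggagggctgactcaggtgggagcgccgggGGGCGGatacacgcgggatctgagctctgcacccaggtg

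The Plin1 window held none of the 4 motifs, and the Plin4 window a CCAAT match on the reverse strand. The Plin3 window held 3 GC boxes, 2 of which share a base, and 1 CCAAT match. The Plin5 window held 1 AGGTCA, 2 GC boxes and 2 CCAAT matches. Over 32851 promoter windows of the same length, 16.3% held AGGTCA, 35.7% GGGCGG, 37.4% CCAAT and 13.6% TATAAA. The dinucleotide CG occurred 2 times in the Plin1 window, 7 in that of Plin4, 9 in that of Plin3 and 16 in that of Plin5, against a median of 7 over all windows. The order of these 4 does not extend to the other members, all lower in heart. CG occurred 10 times in the window of Plin2, 13 in that of G0s2, 18 in that of Pnpla2 and 32 in that of Abhd5. Lipe had 19 and 2 in its 2 windows and Mgll 32 and 42. Each of these genes also had a GC box. Plin4 and Plin5 are neighbours on chromosome 17 with no protein-coding gene between them, and 7 protein-coding genes lie between Plin5 and Plin3. The neighbours Plin4 and Plin5 differ in tissue pattern, since Plin4 was lower and Plin5 higher in wild-type heart.

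Other genes of the pathway were described from lists of lipolysis signalling, other droplet proteins and triglyceride synthesis. Dgat2 is in both the droplet list and the synthesis list and is counted in each. In wild-type heart 29 of 37 tested signalling genes were lower and 3 higher, with a median log2 fold change of -2.04. Of the other droplet proteins 21 of 26 were lower and 3 higher (median -1.99), and of the triglyceride synthesis genes 13 of 15 were lower and none higher (median -1.77). The counts stand beside 77.7% of all genes tested lower and 8.55% higher, so they do not by themselves set the lists apart. The medians stand beside -1.22 for all genes and -4.09 for the members. Prkar2b, a regulatory subunit of protein kinase A that predominates in adipocytes, was at 560 to 733 TPM in wild-type scWAT and at most 0.562 TPM in wild-type heart (-8.84 ± 0.15 SE on the log2 scale, limma adjusted p = 4.33e-13). Fitm1, a droplet-forming protein of muscle, went the other way, at 0.100 to 1.50 TPM and at 54.7 to 76.5 TPM (5.33 ± 0.26 SE on the log2 scale, limma adjusted p = 2.71e-09).

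The genes nearest to each member in profile were found by the root mean square difference of log2(TPM + 1), centred per gene, over the 16 libraries and 10516 candidate genes. Nearest to Plin1, itself spread by 5.35 on that scale, were Retn at 0.31, Pck1 at 0.47 and Cidec at 0.50. Nearest to Pnpla2 were Aqp7, the glycerol channel of fat cells, at 0.38, the lipogenic regulator gene Srebf1 at 0.41 and Fah at 0.46. Lipe was nearest to the peroxisomal transporter gene Abcd2 (0.34), Plin4 to Sik2 (0.38), G0s2 to Hoxa7 (0.31), Mgll to Chp1 (0.18), Plin2 to Hsd17b12 (0.30) and Abhd5 to Letmd1 (0.25). Plin3 and Plin5, themselves spread by only 0.33 and 0.75, were nearest to Smpd1 (0.17) and Dnajc28 (0.42). These 2 distances are large beside the spread of the member, so they mark no close match. All 16 libraries enter these distances, so the tissue difference weighs on them.

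The scWAT comparison asks whether transcripts of the lipolytic machinery differ in fat between mice labelled wild-type and mice labelled with the adipocyte deletion. None of the 10 members passed the adjusted threshold in either direction in scWAT, where 0.0219% of 13682 genes did (limma), and 2, Mgll and Plin3, had an unadjusted p under 0.05, where 15.6% of all genes did. The median log2 fold change of the members was -0.30, against 0.03 for all genes tested.

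With all 8 scWAT libraries, Mgll was the member whose groups did not overlap, as 5.06% of all genes tested were lower without overlap. It stood at 812, 774, 709, 840.1 and 847 TPM in wild-type A5, A7, A8, A12 and A14 and in A24, A26 and A30 at 607, 384 and 664 TPM. The log2 fold change was -0.56 (SE 0.20, 95% interval -1.01 to -0.12, limma adjusted p = 0.248). The library with the high B cell markers, A26, was the lowest for Mgll, and without it the fold change was -0.32 (limma adjusted p = 0.52). The Mgll groups did not overlap without A26 either, where 6.55% of all genes tested were lower without overlap.

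The 2 other lipases did not separate. Pnpla2 in the 3 libraries labelled knockout, at 2794, 2631 and 3131 TPM, lay within the wild-type range (0.34 ± 0.30 SE on the log2 scale, limma adjusted p = 0.577). Lipe stood in A24, A26 and A30 at 1552, 1263 and 1758 TPM, the first 2 below the wild-type range (-0.29 ± 0.17 SE on the log2 scale, limma adjusted p = 0.422, and -0.16 without A26). The ratio of Pnpla2 to Lipe within a library was 1.80, 2.08 and 1.78 in A24, A26 and A30, above the 0.847, 0.853, 1.59, 1.39 and 1.71 of wild-type A5, A7, A8, A12 and A14. It was the one of 8 ratios, all chosen after levels had been seen, whose scWAT groups did not overlap, and it carries no test.

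In A24, A26 and A30 the values of G0s2 were 640, 563 and 789 TPM, beside 633, 515, 555, 272 and 592 TPM in the wild-type libraries (0.42 ± 0.28 SE on the log2 scale, limma adjusted p = 0.462). The wild-type library of A12 was the lowest, and without it the fold change was 0.20. With the skeletal muscle markers as a covariate it was 0.0605. A24 and A30 lay above every wild-type library, so that without A26 the G0s2 groups did not overlap, where 9.72% of all genes tested were higher without overlap. Abhd5 was at 134, 259 and 194 TPM, on both sides of most wild-type values, and its fold change of 0.19 (SE 0.26) turned to -0.0311 without A26.

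Among the perilipins of scWAT, Plin4 stood in A24, A26 and A30 at 1356, 776 and 1771 TPM, with A24 and A26 below the wild-type range (-0.57 ± 0.26 SE on the log2 scale, limma adjusted p = 0.326). Plin1 stood at 1939.5, 1154 and 1874 TPM, with A26 alone below the wild-type range (-0.32 ± 0.23 SE on the log2 scale, limma adjusted p = 0.477). Without A26 these fold changes were -0.24 for Plin4 and -0.0828 for Plin1. Plin3 was at 55.3, 33.1 and 37.0 TPM, with A26 and A30 below the wild-type range (-0.51 ± 0.22 SE on the log2 scale, limma adjusted p = 0.316). Plin2, at 422, 506 and 573 TPM, lay within a wide wild-type range of 398 to 1238 TPM.

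Plin5 in scWAT was in A24, A26 and A30 at 23.2, 27.0 and 40.7 TPM, above 4 of the 5 wild-type libraries and below A14 (0.64 ± 0.47 SE on the log2 scale, limma adjusted p = 0.499). Without A14 the log2 fold change was 1.01 (limma adjusted p = 0.285). The thermogenic adipocyte markers summed to 470, 980 and 809 TPM in those 3 libraries, and Ucp1, their defining gene, stood at 8.85 to 186 TPM against 0.0401 to 1.16 TPM in wild-type scWAT. With the skeletal muscle markers as a covariate, the fold change of Plin5 was 1.16 (limma adjusted p = 0.449). The part of thermogenic cells in it was not tested. As a share of perilipin transcripts, Plin1 was 47.0% ± 3.79 (SD, n = 3), Plin4 36.0% ± 5.07, Plin2 14.9% ± 4.77, Plin3 1.21% ± 0.314 and Plin5 0.880% ± 0.243 in scWAT labelled knockout, each overlapping the wild-type libraries.

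No gene of the other pathway lists passed in scWAT: 0 of 37 tested signalling genes, 0 of 25 other droplet proteins and 0 of 15 triglyceride synthesis genes (limma), with medians of -0.01, -0.09 and -0.09. Npr3, the clearance receptor of natriuretic peptides, had the smallest p of the signalling list, at 281 to 582 TPM in wild-type scWAT and in A24, A26 and A30 at 106, 76.5 and 298 TPM (-1.73 ± 0.43 SE on the log2 scale, limma adjusted p = 0.216). Prkar2b, 560 to 733 TPM in wild-type scWAT, was below that range in all 3 libraries at 399, 327 and 524 TPM (limma adjusted p = 0.225). Without A26 no member passed either, where 0.968% of all genes did. Of the 25 other droplet proteins 1 did, the muscle gene Fitm1 (2.67 ± 0.39 SE on the log2 scale, limma adjusted p = 0.0153). Fitm1 stood at 7.70 and 11.9 TPM in A24 and A30, the 2 libraries with the highest skeletal muscle markers. In A26, the library left out, it stood at 0.326 TPM. The part of muscle in this call was not tested.

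**Figure D4:**
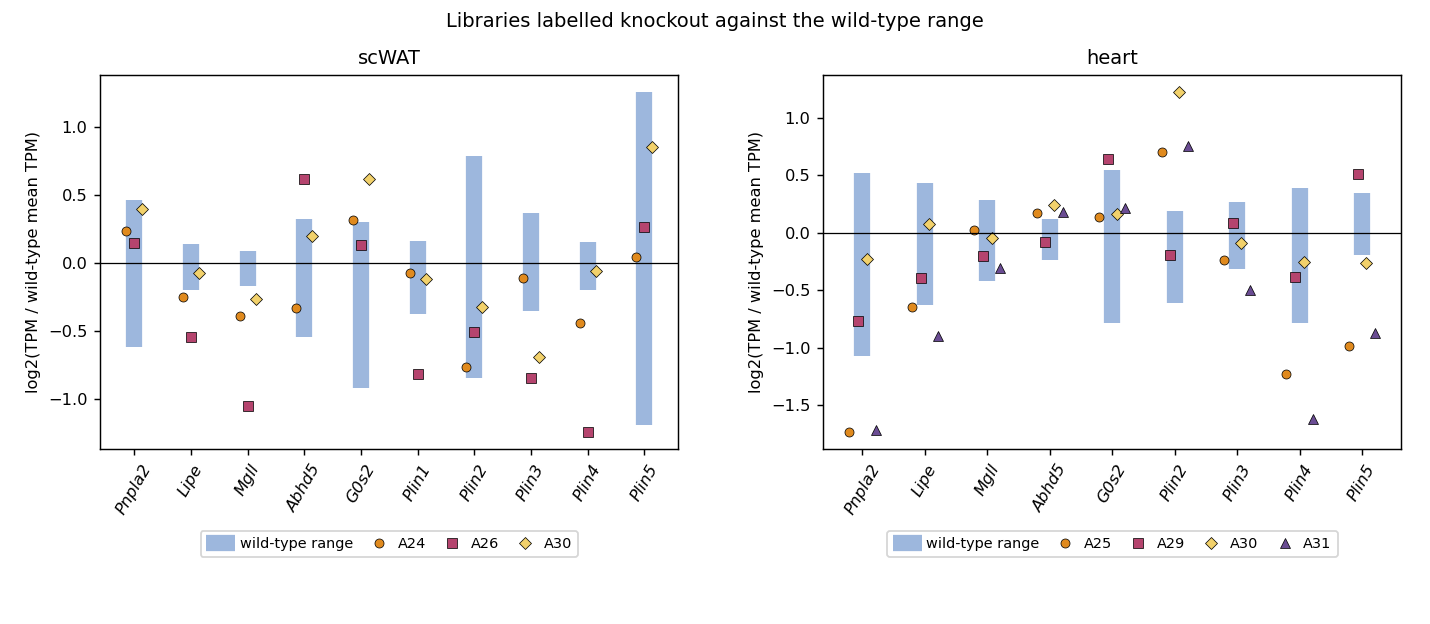
Log2 ratio of each library labelled knockout to the wild-type mean TPM of its tissue, with bars for the wild-type range (5 scWAT and 4 heart libraries); Plin1 is left out of the heart panel because it was near 0 there. In scWAT all 3 points of Mgll lie below the bar, and in heart A25, A30 and A31 lie above it for Plin2 and Abhd5 and below it for Plin5.

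The heart comparison asks whether the ventricle's own lipolytic transcripts differ between the labels, which name a deletion in fat cells. With all 8 hearts, none of the 9 tested members passed, where 0.0501% of 11981 genes did (limma), and 2, Pnpla2 and Plin4, had an unadjusted p under 0.05, where 24.6% of all genes did. Plin1 was under the minimum mean of 1 TPM. None of the 9 had groups that did not overlap, where 4.35% of all genes did. The median log2 fold change was -0.16 over the members and 0.26 over all genes, and fold changes relative to that 0.26 are given where a member differed most.

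Without A29, 2 of the 9 passed, 1 in each direction: Plin2 rose and Plin5 fell. Of all genes tested 34.8% were higher and 4.16% lower past the threshold there. Groups did not overlap for Abhd5 and Plin2 on the higher side, as for 45.3% of all genes, and for Plin5 on the lower side, as for 3.65%. A29 is set apart because its markers lay with the wild-type hearts, so the result describes the other 3 and does not test the label independently. The median of all genes was then 0.39, and that of the members -0.25.

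Plin2 stood at 22.1, 38.0, 36.4 and 38.5 TPM in wild-type A5, A7, A8 and A14, in A25, A30 and A31 at 54.9, 78.9 and 56.9 TPM, and at 29.4 TPM in A29. A25, A30 and A31 were above every wild-type heart, and A29 was within the wild-type range. The log2 fold change was 0.64 (SE 0.30, limma adjusted p = 0.213, 0.39 relative to the median) with A29 and 0.91 (SE 0.23, limma adjusted p = 0.011, 0.52 relative to the median) without it.

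Plin5 went the other way, at 40.4, 45.2, 58.5 and 40.7 TPM in the wild-type hearts, in A25, A30 and A31 at 23.3, 38.5 and 25.2 TPM, and at 65.6 TPM in A29, the highest heart value. Its log2 fold change was -0.37 (SE 0.31, limma adjusted p = 0.453, -0.63 relative to the median) with A29 and -0.67 (SE 0.21, limma adjusted p = 0.0306, -1.06 relative to the median) without it. A30 lay just under the lowest wild-type heart, A25 and A31 far under it.

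The ratio of Plin2 to Plin5 within a library, which does not depend on the scaling of TPM, was 0.548, 0.841, 0.622 and 0.948 in the wild-type hearts and 2.36, 2.05 and 2.25 in A25, A30 and A31. In A29 it was 0.449, below every wild-type heart. This ratio joins the members called in opposite directions without A29, so it adds no support to those calls. It was chosen after levels had been seen and carries no test. Plin2 took 15.8% to 19.6% of perilipin transcripts in wild-type heart and 14.9% to 40.3% in hearts labelled knockout, where A29 was the lowest.

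Pnpla2 was low in 2 of the 4 hearts labelled knockout. Its values were 70.0, 125, 182 and 211 TPM in wild-type hearts, 44.2 TPM in A25, 44.7 TPM in A31, 86.5 TPM in A29 and 125 TPM in A30. The last 2 lay within the wild-type range. The log2 fold change was -0.98 (SE 0.40, 95% interval -1.87 to -0.09, limma adjusted p = 0.172, -1.24 relative to the median), and -1.09 without A29 (SE 0.44, limma adjusted p = 0.0725). G0s2, its inhibitor, was at 16.5, 30.4, 41.6 and 25.3 TPM in wild-type hearts and at 31.3, 44.4, 31.9 and 33.1 TPM in A25, A29, A30 and A31 (0.35 ± 0.27 SE on the log2 scale, limma adjusted p = 0.419, 0.0994 relative to the median). This G0s2 fold change was 0.0469 under median-of-ratios scaling, 0.0472 under quantile normalization, 0.18 without mitochondrially encoded genes and 0.13 without the wild-type heart of A5.

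The ratio of Pnpla2 to G0s2 was 4.25, 4.11, 4.37 and 8.33 in the wild-type hearts A5, A7, A8 and A14 and 1.41, 1.95, 3.93 and 1.35 in A25, A29, A30 and A31. It was the one of the 8 ratios whose heart groups did not overlap with A29 included, and the gap between A30 and A7 was small. The ratio was chosen after levels had been seen and carries no test. In scWAT the same ratio was 4.37, 4.67 and 3.97 in A24, A26 and A30, within the wild-type 2.49 to 8.25.

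**Figure D5:**
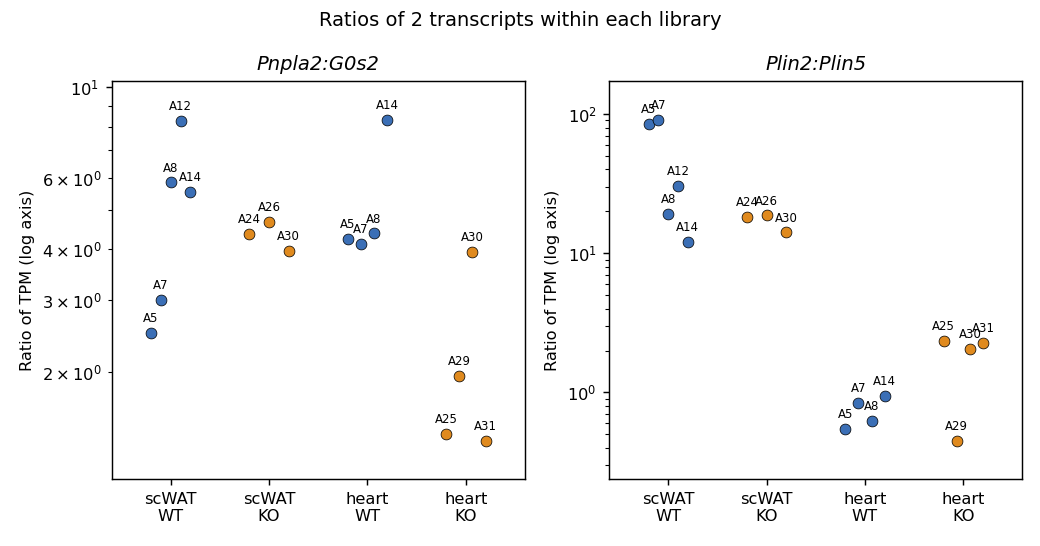
Ratio of the TPM of Pnpla2 to G0s2 and of Plin2 to Plin5 within each library (log axes), with each point named by its mouse. In heart, Pnpla2 to G0s2 is 4.11 or more in wild-type libraries and 3.93 or less in those labelled knockout, and Plin2 to Plin5 is above 2 in A25, A30 and A31 alone.

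Lipe and Plin4 resembled Pnpla2 in which hearts were low. Plin4 stood at 29.5, 66.8, 59.8 and 48.0 TPM in wild-type hearts, below them in A25 and A31 at 21.8 and 16.6 TPM, and within that range at 39.0 and 42.8 TPM in A29 and A30 (-0.78 ± 0.34 SE on the log2 scale, limma adjusted p = 0.189, -1.04 relative to the median). Lipe stood at 12.1, 19.2, 25.2 and 18.1 TPM, at 11.9 and 10.04 TPM in A25 and A31, and at 14.2 and 19.7 TPM in A29 and A30 (-0.39 ± 0.27 SE on the log2 scale, limma adjusted p = 0.375). The cardiomyocyte markers summed to 24195 and 19050.4 TPM in A25 and A31, 32035 and 26029 TPM in A29 and A30, and 25534 to 35789 TPM in wild-type hearts, and their part in these values was not tested.

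The other members did not pass in heart with or without A29. Abhd5 was at 20.8 to 26.6 TPM in wild-type hearts and at 27.6, 23.1, 28.98 and 27.7 TPM in A25, A29, A30 and A31, a log2 fold change of 0.13 (SE 0.18, 95% interval -0.27 to 0.52), whose sign turned when TPM was scaled by median ratios (-0.18), by quantiles (-0.16) or without mitochondrially encoded genes (-0.0483). Mgll was at 36.2 to 59.1 TPM and at 39.2 to 49.3 TPM (-0.10 ± 0.20 SE on the log2 scale). Plin3 was at 47.8 to 71.9 TPM and at 42.3 to 63.1 TPM (-0.16 ± 0.21 SE on the log2 scale). Under those 3 scalings in the same order, the fold change was -0.42, -0.40 and -0.28 for Mgll and -0.47, -0.47 and -0.34 for Plin3. Without the wild-type heart of A7 that of Mgll was -0.00213. Plin1 was listed at 0.0113 to 0.126 TPM in hearts labelled knockout.

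In A25, A30 and A31 the macrophage markers summed to 1189, 1225 and 1469 TPM and the fibroblast markers to 2184, 3523 and 2937 TPM, against 147 to 233 TPM and 203 to 319 TPM in wild-type hearts. In A29 they were at 142 and 248 TPM. These marker levels moved with Plin2, and their part in it was not tested. With all 8 hearts, 0 of the 8 macrophage and 0 of the 7 fibroblast markers passed the threshold (limma). Without A29 all 8 and all 7 were higher past it. Because A29 was set apart by its markers, the marker calls without it are partly fixed by that choice and give no independent support. Of all 12081 genes tested there, 34.8% were higher and 4.16% lower. Of the 7 mature adipocyte markers tested, 2 were higher and 2 lower, and Adipoq was at most at 0.336 TPM in hearts labelled knockout.

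Other droplet and lipolysis genes in heart did not pass with all 8 libraries (0 of 29 signalling genes, 0 of 23 droplet proteins and 0 of 14 triglyceride synthesis genes, limma). Without A29, 7 signalling genes were higher and 1 lower, 8 droplet proteins higher and 4 lower, and 2 triglyceride synthesis genes higher and 2 lower, beside the 34.8% and 4.16% of all genes. Their medians were -0.09, 0.47 and 0.23, beside 0.39 for all genes. Ces1d, a carboxylesterase that hydrolyses triglyceride, fell in A25, A30 and A31, to 13.4, 14.7 and 14.3 TPM, while wild-type hearts had 51.9 to 78.1 TPM and A29 63.1 TPM (log2 fold change without A29 -2.07, SE 0.17, limma adjusted p = 3.15e-05). Fitm1 and Fitm2, which help droplets form at the endoplasmic reticulum, fell without A29 by 1.11 and 1.26 on the log2 scale (limma adjusted p = 0.00115 and 0.00113). Dgat2, which makes triglyceride from diglyceride, fell by 1.57 (SE 0.28, limma adjusted p = 0.002), from 70.5 to 152 TPM to 37.6, 46.9 and 28.3 TPM, with 108 TPM in A29. This gene is among the lower ones of both the droplet and the synthesis list. Lipa, the lysosomal acid lipase, rose from 7.98 to 10.7 TPM to 20.8, 25.7 and 22.9 TPM, with 7.99 TPM in A29 (log2 fold change without A29 1.20, SE 0.17, limma adjusted p = 0.000626).

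Whether the difference between labels itself differed between tissues was tested by an interaction of tissue and genotype over all 16 libraries. None of the 9 tested members passed the adjusted threshold, where 0.0607% of 11536 genes did (limma). The heart difference minus the scWAT difference was -1.32 for Pnpla2 (SE 0.54, limma adjusted p = 0.188), 1.03 for Plin2 (SE 0.50, limma adjusted p = 0.255) and -1.01 for Plin5 (SE 0.59, limma adjusted p = 0.347) on the log2 scale. Without A29 these were -1.43, 1.30 and -1.31, and none of the 9 passed, where 24.6% of all genes did (limma adjusted p = 0.0768, 0.0536 and 0.106 in that order). The calls of Plin2 and Plin5 in 3 hearts are therefore not shown to differ from scWAT. Of the pathway lists, 5 of 29 tested signalling genes were then higher and 1 lower. Of 22 droplet proteins 4 were higher and 4 lower, and of 14 triglyceride synthesis genes 1 was higher. These counts stand beside the 24.6% of all genes called in either direction. Npr3 differed by 2.99 (SE 0.51, limma adjusted p = 0.000803), and Ces1d by -2.75 (SE 0.40, limma adjusted p = 0.000311). Mouse A30, labelled knockout, gave both tissues, with Plin2 at 573 TPM in scWAT, within the wild-type range, and at 78.9 TPM in heart, the highest of the 8 hearts.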

How the data were processed

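RNA was extracted with Trizol and made into libraries with an Illumina TruSeq kit, per the labels' protocols. For each library the authors deposited TPM by gene symbol (33641 symbols, per the file headers), and every table sums to 1e+06. No label names the aligner, quantifier, annotation or build, so reads shared between near-identical or overlapping genes cannot be judged. TPM keeps no depth, so no counting interval is given.

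Analysis used log2(TPM + 1), which understates the change of low genes. A gene entered a fit at a mean of 1 TPM or more. The fits were made in R 4.3.3 with limma 3.58.1 (lmFit, then eBayes with a trend). They were 2-sided and adjusted by Benjamini-Hochberg over all genes of the fit, with a threshold of 0.05. The same fits were run on simulated data. Those data held no outlying library such as A29 or A26, so the effect of such a library was not covered. All 10 members are named. Up to 4 genes of each pathway list were named by smallest p, and up to 3 genes per member by profile among genes of at least 5 TPM in a tissue. Members, lists and ratios were chosen with earlier results of these data known. The same animal gave both tissues in 4 wild-type mice, and over 13727 genes the deviations of its 2 libraries from their group means correlated by 0.0119 to 0.141. Alternatives were other pseudocounts, filters, scalings and weights, covariates, a shared fit, leaving out each library and the mouse as replicate block.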

Additional observations from a re-analysis of the deposited data

Results flagged for a closer look

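Of 30 combinations of a gene with a group of 4 or 5 libraries, 4 held a library whose gap to its nearest neighbour was large for the range of its group, and chance gives about 1 in 20. G0s2 stood at 44.4 TPM in the heart of A29, against 31.3 to 33.1 TPM in the other hearts labelled knockout. Plin2 stood at 22.1 TPM in the wild-type heart of A5, against 36.4 to 38.5 TPM in the other wild-type hearts. Plin1 stood at 0.698 TPM in the wild-type heart of A8, where Adipoq was at 1.72 TPM and Cidec at 1.92 TPM, the highest heart values of both. Plin5 stood at 53.9 TPM in the wild-type scWAT of A14, against 9.83 to 21.2 TPM in the others.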

How the results depend on the processing

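Of the values recomputed under the alternatives, 720 kept their direction and side of the threshold, 15 passed only in the alternative and 23 changed sign. The number of members past the threshold was 0 in scWAT under every alternative and 9 or 10 between wild-type tissues. With array weights, which give less weight to outlying libraries, 5 members passed in heart (limma: Pnpla2 -1.76, Lipe -0.72, Plin2 0.56, Plin4 -1.39 and Plin5 -0.91) and 5 in the interaction, the same 5 genes. These stand beside 65.8% of the 11981 genes in heart and 45.6% of the 11536 in the interaction that array weights called, so they are no result about the members. Leaving out 1 library each gave 0 to 2 members in heart, with 2 only without A29. Over all genes the number past the threshold ran from 0 to 179 in scWAT (3 as reported), 2 to 7885 in heart (6), 3 to 5263 in the interaction (7) and 9089 to 13282 between tissues (11835), and the highest counts in heart and in the interaction came from array weights. The cause of these shifts was not tested.

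With the mouse as replicate block, over the 4 mice with both tissues, 9 members passed between wild-type tissues, and Plin3 had a log2 fold change of -0.0772. Array weights gave Plin3 -0.0145, leaving out 1 library each gave -0.0939 to 0.0992, and Plin3 passed under median-of-ratios scaling, quantile normalization and removal of mitochondrially encoded genes (1.44, 1.40 and 1.01). Abhd5 in scWAT turned to -0.0257 with array weights and ranged from -0.0311 to 0.44 with 1 library left out. Abhd5 in heart turned to -0.18, -0.16 and -0.0483 under those 3 scalings in the same order. Plin2 in scWAT was 0.0363 in the libraries whose file names lack a genotype. In the interaction, Abhd5 was 0.11 with array weights. With 1 library left out it ran from -0.31 to 0.16, Lipe from -0.29 to 0.0467, G0s2 from -0.29 to 0.15 and Plin4 from -0.54 to 0.0529. No paired fit between labels was possible because no mouse carries both. Depth is unknown, so the counting error of low values such as Plin1 in heart cannot be given.

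Over all alternatives the log2 fold changes between labels in heart ran from -1.76 to -0.77 for Pnpla2, -0.72 to -0.24 for Lipe, 0.0469 to 0.56 for G0s2, 0.32 to 0.91 for Plin2, -1.39 to -0.54 for Plin4 and -0.91 to -0.19 for Plin5. In scWAT they ran from 0.20 to 0.62 for Pnpla2, -0.53 to -0.16 for Lipe, -0.89 to -0.32 for Mgll, -0.81 to -0.0828 for Plin1, -0.88 to -0.37 for Plin3, -1.11 to -0.24 for Plin4 and 0.41 to 1.19 for Plin5.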
